A study of Mus musculus with 9 samples.

Results

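Syndecans and glypicans are the cell-surface proteins that carry heparan sulfate, and their transcripts were followed here in stroma sorted from mouse bone marrow. The members are the 4 syndecan genes Sdc1 to Sdc4 and the 6 glypican genes Gpc1 to Gpc6, chosen by gene symbol. Each of the 10 genes had exactly 1 row that names it alone, so they make up 10 of the 21789 rows with a single gene. All mice were of the C57Bl/6J strain and were young adults, and sorted cells came from mice aged 6 to 12 weeks. The YFP-positive group held 3 arrays of cells from mice with the IL7-Cre transgene and a heterozygous Rosa-eYFP reporter. In these mice Cre is driven by Il7, so YFP marks cells in which that driver is, or once was, active. Cells were sorted as CD45- and lineage-negative, CD54+ and BP1+, and the YFP-negative group was 1 array of the cells of this gate without YFP, taken from the same reporter genotype. The wild-type group held 3 arrays of cells of the same gate from wild-type mice, and 2 arrays of unsorted wild-type marrow served as the control. A sorted sample held 1800 to 10000 cells and an unknown quantity of RNA, 2300 cells in the YFP-negative sample, while total marrow entered as 10 ng of RNA. The labels do not say whether replicates came from separate animals, so p-values measure only the spread between these samples, which may be technical.

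Heparan sulfate proteoglycans consist of a core protein and long sulfated sugar chains that bind growth factors, chemokines and morphogens. Syndecans span the membrane with a short cytoplasmic tail and can be shed by proteases, whereas glypicans hang from the membrane by a lipid (GPI) anchor and can be released by the enzyme Notum. In bone marrow, heparan sulfate is known to bind the stromal factors Cxcl12 and Il7, and syndecan-1, also called CD138, is the classical surface marker of plasma cells.

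Values are log2 signals of a transcript cluster, so a difference of 1 is a doubling. The median signal over the rows with 1 gene was 4.51 to 4.60 on 8 arrays as deposited and 3.46 on the YFP-negative array, and comparisons with that array therefore use signals that were first normalized together by cyclic loess. The background level of an array is the 95th percentile of its 1035 olfactory receptor rows, 3.81 to 4.35 as deposited on those 8 arrays. A gene was taken as above background in a group where every array exceeded its own level. Differences were tested with limma over all 21789 rows and called at a Benjamini-Hochberg adjusted p under 0.05. Ptprc, which encodes the CD45 gated against, was not above background in any sorted group and stood at 9.72 ± 0.042 (SD, n = 2) in total marrow. Enpep, which encodes BP1, was at 6.77 ± 0.92 (SD, n = 3) in YFP-positive cells, 7.36 ± 0.16 (n = 3) in wild-type cells and 4.05 ± 0.078 (n = 2) in marrow, and Icam1, which encodes CD54, at 6.50 ± 0.31, 6.41 ± 0.18 and 5.35 ± 0.052. The 9 markers of reticular stroma averaged 10.7 to 11.0 on the YFP-positive and wild-type arrays, with 9 of 9 above background, against 4.50 to 4.54 in total marrow. Neutrophil markers averaged 6.67, 6.09 and 4.29 on YFP-positive replicates 1 to 3 and 5.18, 4.20 and 3.97 on the wild-type replicates, against 11.7 to 11.8 in total marrow. Endothelial markers averaged 3.56 to 3.79 on the 3 YFP-positive and 3 wild-type arrays, against 4.13 to 4.18 in marrow.

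Above background were 7 of the 10 genes in YFP-positive cells, 7 in wild-type cells and 9 in the YFP-negative array. All 4 syndecans were among them in each group, together with Gpc1, Gpc4 and Gpc6. Total marrow held 6 of the 10 above background as deposited, and 5 after cyclic loess, where Gpc6 lay under the background level of replicate 1. Gpc5 was not above background on any scale or in any group. Because levels of different genes depend on their probes, no gene's level is set against another's.

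**Figure D1:**
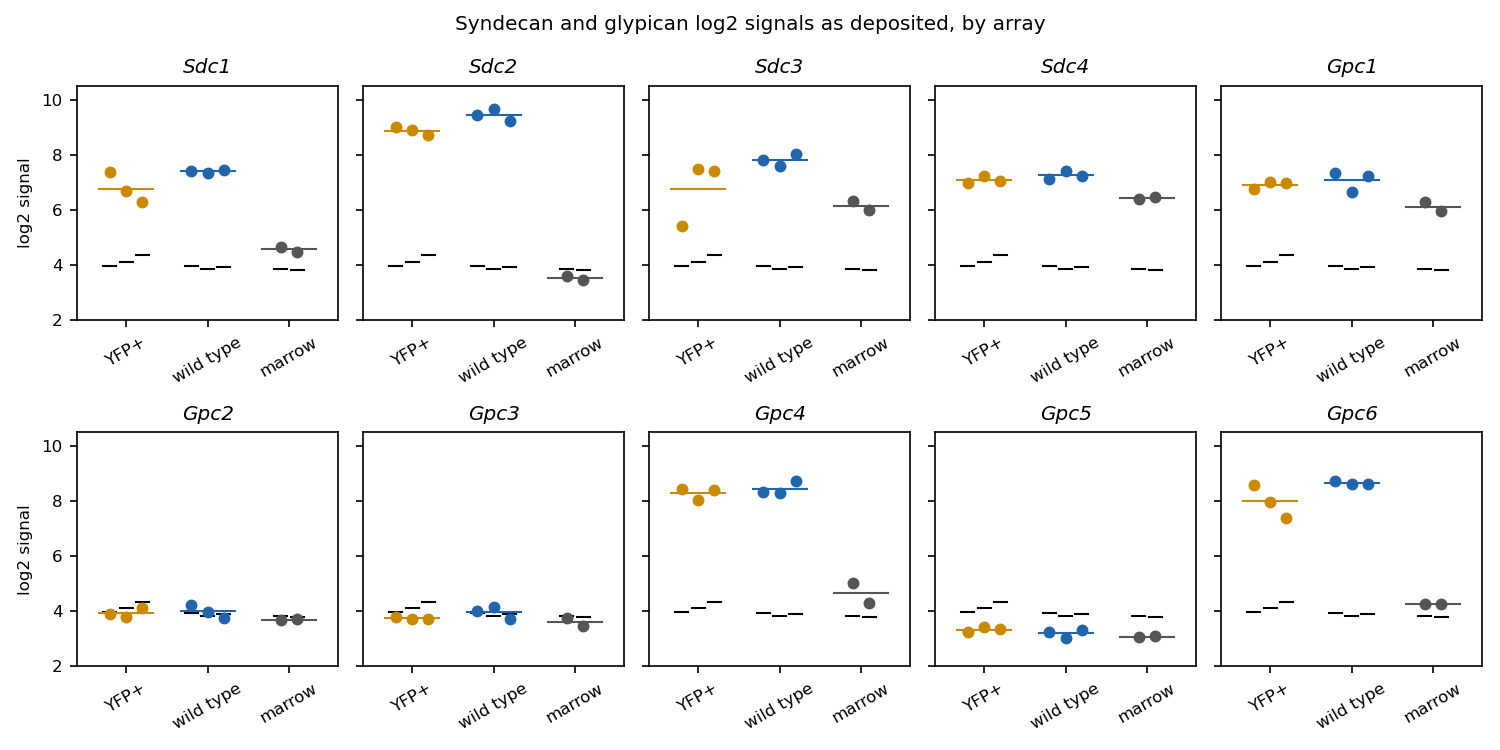
Log2 signals as deposited for the 4 syndecans and 6 glypicans, 1 panel per gene, with a point per array, a coloured line at the group mean and a short black line at the background level of each array. Sdc2 was at 8.73 to 9.67 on the 6 sorted arrays shown and at 3.46 to 3.61 in total marrow, and Gpc5 lay under the background level on all arrays.

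Against total marrow, 6 of the 10 genes were higher in YFP-positive cells and none was lower: Sdc1, Sdc2, Sdc4, Gpc1, Gpc4 and Gpc6. Of all rows tested in this comparison, 11% were called higher and 18.5% lower, and the median change was 0.73 for the 10 genes and 0.085 for all rows. The same 6 genes were called higher in wild-type cells and none lower, where 10.4% of all rows were called higher and 13.9% lower. The median change there was 1.31 for the 10 genes and 8.63e-05 for all rows. Both comparisons share the total marrow arrays. Fewer cells of a type and less RNA per cell cannot be told apart in bulk samples such as total marrow, and RNA input differed along with the cells.

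Among the syndecans, Sdc2 showed the widest gap to marrow. Sdc2, the syndecan typical of mesenchymal cells, had log2 signals of 9.01, 8.90 and 8.73 in YFP-positive cells, 9.43, 9.67 and 9.24 in wild-type cells, and 3.61 and 3.46 in total marrow. Every sorted array was far above both marrow arrays, which did not exceed their background levels of 3.85 and 3.81. The measured difference was 5.35 ± 0.16 (limma SE, adjusted p = 3.16e-07) for YFP-positive cells and 5.92 ± 0.16 (adjusted p = 2.18e-07) for wild-type cells. Set against the background level of the marrow arrays, Sdc2 was at least 33.2-fold higher in YFP-positive cells and at least 49.2-fold higher in wild-type cells.

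Sdc1 encodes syndecan-1, the plasma cell marker. Its log2 signals were 7.37, 6.67 and 6.28 in YFP-positive cells, 7.42, 7.34 and 7.45 in wild-type cells, and 4.66 and 4.47 in total marrow. The sorted arrays did not overlap marrow, and the YFP-positive arrays spread over more than a log2 unit while the wild-type arrays lay close together. The difference from marrow was 2.20 ± 0.28 in YFP-positive cells, a 4.61-fold difference (95% interval 1.54 to 2.87 on the log2 scale, adjusted p = 7.95e-04 by limma). In wild-type cells it was 2.83 ± 0.28, or 7.13-fold (adjusted p = 1.95e-04). Of 8 plasma cell markers, 4 were called lower than marrow in YFP-positive cells and 5 in wild-type cells, and 0 higher. Over all rows 18.5% and 13.9% were lower, and 1 of the 8 markers had a difference above 0 in each group. The 8 markers averaged 4.20 to 4.29 on YFP-positive arrays, 4.16 to 4.20 on wild-type arrays and 6.38 to 6.44 in total marrow. On each sorted array 3 of 8 exceeded background, against 6 of 8 in marrow. The part of plasma cells in the Sdc1 signals was not tested.

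Sdc4, a broadly expressed syndecan of focal adhesions, differed less. It stood at 6.97, 7.22 and 7.04 in YFP-positive cells, 7.13, 7.42 and 7.21 in wild-type cells, and 6.40 and 6.45 in total marrow. Neither of these groups overlapped marrow, and the differences were 0.65 ± 0.14 (1.57-fold, adjusted p = 0.00885, limma) and 0.83 ± 0.14 (1.78-fold, adjusted p = 0.00290). Without marrow replicate 1 the YFP-positive call for Sdc4 was lost (adjusted p = 0.0717), as it was with a trended, robust variance (adjusted p = 0.0537). Leaving out marrow replicate 2 put its adjusted p at 0.05002, just over the threshold.

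Sdc3, known as the syndecan of neural tissue, was the only syndecan not called. It was at 5.40, 7.47 and 7.41 in YFP-positive cells, 7.82, 7.60 and 8.03 in wild-type cells, and 6.34 and 5.98 in total marrow. YFP-positive replicate 1 lay below both marrow arrays, and the other YFP-positive arrays and the wild-type arrays lay above them. The difference was 0.60 ± 0.58 in YFP-positive cells (95% interval -0.75 to 1.96, adjusted p = 0.461, limma) and 1.66 ± 0.58 in wild-type cells (0.30 to 3.01, adjusted p = 0.0830), where the groups did not overlap. Without YFP-positive replicate 1 the values were 1.29 (adjusted p = 0.00272) and 1.66 (adjusted p = 4.85e-04), since all groups share one estimate of the spread. That replicate also had the highest neutrophil marker mean of the sorted arrays, 6.67, and its part in the low Sdc3 value was not tested.

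To show the sequence around the start of the syndecan genes that were called, the 250 bases before the RefSeq transcription start (GRCm38.p6) of Sdc1, chr12:8771146-8771395 on the plus strand, and of Sdc4, chr2:164443189-164443438 on the minus strand, are given 5′ to 3′ on the gene's strand. Capitals mark the GC box GGGCGG on either strand, a motif bound by Sp1-type factors.
Sdc1: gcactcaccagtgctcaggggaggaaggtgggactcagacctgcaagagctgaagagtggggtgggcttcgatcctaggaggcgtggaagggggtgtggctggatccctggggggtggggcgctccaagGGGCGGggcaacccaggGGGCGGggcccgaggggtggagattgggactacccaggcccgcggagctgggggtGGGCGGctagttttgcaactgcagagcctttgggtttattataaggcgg
Sdc4: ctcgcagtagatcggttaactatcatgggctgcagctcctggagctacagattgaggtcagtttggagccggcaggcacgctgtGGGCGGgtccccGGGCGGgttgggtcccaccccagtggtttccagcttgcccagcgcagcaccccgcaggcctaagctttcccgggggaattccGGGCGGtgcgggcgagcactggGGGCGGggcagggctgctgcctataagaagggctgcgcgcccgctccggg
The stretch before Sdc1 held 3 GC boxes, that before Sdc4 held 4, and that of Sdc3 held 3. Of 32841 mouse promoters of the same length, 32.7% held at least 1. Neither stretch held TATAAA, found in 12.4% of all on either strand. The palindrome CCCNNGGG, of the form bound by Ebf factors, occurred 3 times before Sdc1, 1 of them overlapping a GC box, once before Sdc4 and in 11.8% of all promoters. The reference table matched 7 of the 10 genes, without Sdc2, Gpc1 and Gpc6. These letters describe the sequence and say nothing about binding in these cells.

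The glypicans divided into Gpc1, Gpc4 and Gpc6, which were called higher in both sorted groups, and Gpc2, Gpc3 and Gpc5, which were near or below background. Gpc6, a glypican of mesenchyme whose loss causes skeletal dysplasia in humans, stood at 8.60, 7.97 and 7.41 in YFP-positive cells, 8.74, 8.61 and 8.62 in wild-type cells, and 4.27 and 4.26 in total marrow. All sorted arrays lay more than 3 log2 units above marrow. The difference was 3.73 ± 0.30 (13.2-fold, 95% interval 3.03 to 4.43, adjusted p = 5.65e-05, limma) in YFP-positive cells and 4.39 ± 0.30 (21.0-fold, adjusted p = 2.08e-05) in wild-type cells.

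Gpc4, the closest relative of Gpc6 in the family, was at 8.45, 8.03 and 8.42 in YFP-positive cells, 8.35, 8.30 and 8.74 in wild-type cells, and 5.03 and 4.29 in total marrow. Both groups overlapped each other and neither overlapped marrow. The difference was 3.64 ± 0.25 (12.5-fold, adjusted p = 2.53e-05, limma) and 3.80 ± 0.25 (13.9-fold, adjusted p = 1.85e-05). Gpc1, a widely expressed glypican, differed least of the called glypicans. Its signals were 6.76, 7.01 and 6.98 in YFP-positive cells, 7.32, 6.65 and 7.24 in wild-type cells, and 6.28 and 5.95 in total marrow. Neither group overlapped marrow, with differences of 0.80 ± 0.22 (1.74-fold, adjusted p = 0.0303) and 0.96 ± 0.22 (1.94-fold, adjusted p = 0.0165). The Gpc1 calls were lost in several fits. For YFP-positive cells against marrow the call was lost with a trended, robust variance (adjusted p = 0.0505, limma), without YFP-positive replicate 2 (adjusted p = 0.0707) or 3 (0.0657), and without marrow replicate 1 (0.0704) or 2 (0.192). For wild-type cells it was lost without wild-type replicate 1 (adjusted p = 0.0516) or 3 (0.0536), and without marrow replicate 2 (0.135).

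Gpc2, Gpc3 and Gpc5 gave no call in either comparison. Gpc2, first described in the developing nervous system, ranged from 3.81 to 4.12 in YFP-positive cells, 3.78 to 4.22 in wild-type cells and 3.68 to 3.73 in total marrow. Gpc3, a glypican of fetal tissues whose loss causes overgrowth, ranged from 3.72 to 3.81, from 3.73 to 4.14 and from 3.47 to 3.75. Gpc5 ranged from 3.24 to 3.42, from 3.03 to 3.31 and from 3.05 to 3.09. No group of these arrays was above background for any of them, so the sizes of their differences are not resolved. The differences from marrow were 0.24, 0.14 and 0.26 in YFP-positive cells and 0.29, 0.36 and 0.12 in wild-type cells, with adjusted p of 0.158 to 0.616 by limma.

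Genes at background sat next to genes well above it in the genome. In the order of genes in GRCm38.p6, Gpc4 and Gpc3 are neighbours on chromosome X, and Gpc5 and Gpc6 are neighbours on chromosome 14. The sequences before the starts of Gpc4 (chrX:52164924-52165173 on the minus strand), Gpc3 (chrX:52613975-52614224 on the minus strand) and Gpc5 (chr14:115091965-115092214 on the plus strand) are printed for this contrast, again as 250 RefSeq bases 5′ to 3′ with GC boxes of either strand in capitals.
Gpc4: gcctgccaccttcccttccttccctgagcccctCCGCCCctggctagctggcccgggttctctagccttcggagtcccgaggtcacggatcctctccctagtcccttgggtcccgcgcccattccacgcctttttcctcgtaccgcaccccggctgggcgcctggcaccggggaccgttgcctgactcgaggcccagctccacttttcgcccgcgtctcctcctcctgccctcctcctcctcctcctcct
Gpc3: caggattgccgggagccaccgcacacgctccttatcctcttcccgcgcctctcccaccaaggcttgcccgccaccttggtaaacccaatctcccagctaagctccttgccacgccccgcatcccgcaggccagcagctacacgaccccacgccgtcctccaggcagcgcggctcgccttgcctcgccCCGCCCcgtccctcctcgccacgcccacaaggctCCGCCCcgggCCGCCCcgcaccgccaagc
Gpc5: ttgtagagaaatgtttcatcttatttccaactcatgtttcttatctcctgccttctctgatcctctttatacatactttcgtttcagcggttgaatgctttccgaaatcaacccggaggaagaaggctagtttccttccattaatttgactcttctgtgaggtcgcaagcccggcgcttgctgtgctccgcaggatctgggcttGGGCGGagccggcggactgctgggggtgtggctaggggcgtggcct
Gpc3, which was at background, held 3 GC boxes and 25 CpG dinucleotides, and Gpc4, which was 12.5-fold above marrow in YFP-positive cells, held 1 GC box and 18 CpG. The G and C content was 71.6% for Gpc3 and 68.4% for Gpc4, against a median of 52.4% for all promoters, whose median CpG number was 6. Gpc5 had 51.2% G and C, 12 CpG and 1 GC box. It held the only TATAAA among the 7 genes, which lies on the opposite strand and reads tttata in the letters above. CCCNNGGG occurred once before Gpc4 and not before Gpc3 or Gpc5. Gpc2, also at background, had 3 GC boxes and 2 copies of CCCNNGGG, both overlapping a GC box. Windows with GC boxes and with a G and C content above that median thus occurred both among the called genes and among those at background.

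**Figure D2:**
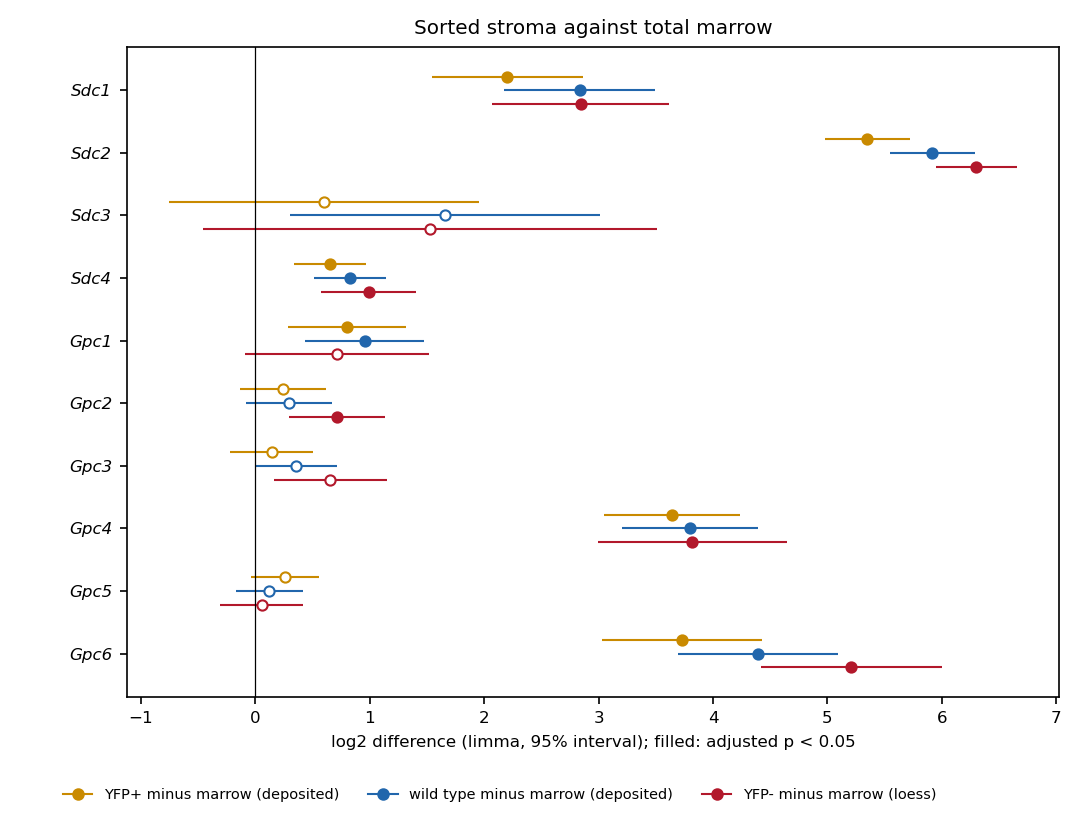
Log2 difference from total marrow for each gene in YFP-positive and wild-type cells (as deposited) and in the YFP-negative array (after cyclic loess), with limma's 95% interval; filled points have an adjusted p under 0.05. Sdc1, Sdc2, Sdc4, Gpc4 and Gpc6 were called in all comparisons, with Sdc2 at 5.35, 5.92 and 6.30, and the intervals of Sdc3 were the widest.

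The comparison of YFP-positive with wild-type cells sets reporter-marked cells of the reporter mice beside the whole gate of wild-type mice. Reporter status and genotype differ together in it and cannot be told apart. None of the 10 genes was called, and neither was any of the 21789 rows by limma (0% higher and 0% lower), although 3250 rows had an unadjusted p under 0.05. The means of 9 of the 10 genes were lower in YFP-positive cells, with a median difference of -0.20 against 0.045 for all rows. That count depends on scaling, since Sdc4, Gpc1 and Gpc4 changed sign after cyclic loess or quantile normalization. It also includes Gpc2 and Gpc3, which were not above background in either group, and no share of all rows stands beside it. Sdc1, Sdc2 and Gpc6 had an unadjusted p under 0.05. Sdc2 differed by -0.57 (95% interval -0.90 to -0.24, adjusted p = 0.224, limma), and all 3 YFP-positive arrays lay below all 3 wild-type arrays, also after cyclic loess, where the difference was -0.30. Gpc6 differed by -0.66 (-1.29 to -0.04, adjusted p = 0.324), without overlap as deposited. After cyclic loess the Gpc6 groups overlapped, at 7.51 to 8.44 and 8.23 to 8.50, and the difference was -0.42. It was -0.97 without YFP-positive replicate 1 and -0.37 without YFP-positive replicate 3. Sdc1 differed by -0.63 (-1.22 to -0.04, adjusted p = 0.323), where YFP-positive replicate 1 lay within the wild-type range and the other replicates below it. Without YFP-positive replicate 1 the Sdc1 difference was -0.93, and without replicate 3 it was -0.38.

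For the other genes the intervals give the differences these arrays cannot exclude. Sdc3 differed by -1.05 (95% interval -2.27 to 0.16), Sdc4 by -0.18 (-0.46 to 0.10), Gpc1 by -0.16 (-0.62 to 0.31) and Gpc4 by -0.16 (-0.69 to 0.37). The Sdc3 value rested on YFP-positive replicate 1, without which it was -0.37. With 3 arrays against 3 an exact permutation test cannot go below p = 0.1. The YFP-positive arrays also had the higher neutrophil markers on replicates 1 and 2 and the higher monocyte and macrophage markers, which averaged 5.13, 4.45 and 4.84 against 4.43, 4.22 and 4.07 in wild-type cells. Their part in the differences of the syndecans and glypicans was not tested.

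**Figure D3:**
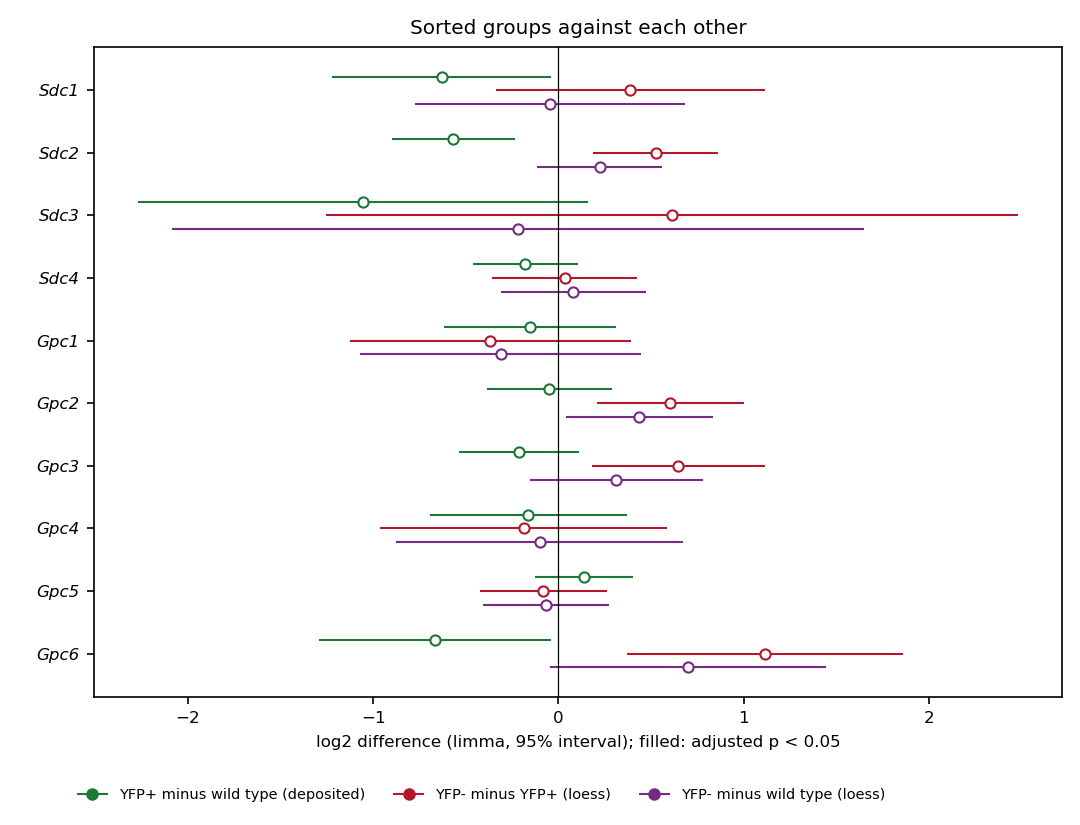
Log2 differences between the sorted groups for each gene, with limma's 95% interval, as deposited for YFP-positive minus wild type and after cyclic loess for the YFP-negative array minus either group. All points are open because none had an adjusted p under 0.05; the difference farthest from 0 is Gpc6 in YFP-negative minus YFP-positive, at 1.11.

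The YFP-negative array came from the same gate and genotype as the YFP-positive cells and is a single array, so its test borrows the spread seen within the remaining groups. After cyclic loess it held Il7 at 7.03, within the range of the YFP-positive arrays, whose mean was 7.16 ± 0.65 (SD, n = 3). Its reticular stroma markers averaged 10.7 and its neutrophil markers 4.99 on that scale. Of the 10 genes, 4 lay above all 6 other sorted arrays, 6 lay within their range and 0 below it. This position was read for the 10 genes only, so no share of all rows stands beside these numbers. They are therefore not read as particular to these genes.

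Gpc6 and Sdc2 were the well-measured genes among those 4. After cyclic loess Gpc6 was at 9.05 on the YFP-negative array, at 8.44, 7.87 and 7.51 in YFP-positive cells and at 8.50, 8.23 and 8.35 in wild-type cells. The order of the group levels was YFP-negative, wild type, YFP-positive and marrow, and neither step among the sorted groups was called. The difference from YFP-positive cells was 1.11 ± 0.32 (95% interval 0.37 to 1.86, adjusted p = 0.0993, limma), which passed the threshold without YFP-positive replicate 1 (1.37, adjusted p = 0.0235). Against wild type it was 0.70 (-0.05 to 1.44, adjusted p = 0.251). As deposited, on an array whose median lay about a log2 unit lower, Gpc6 was at 8.07, within the YFP-positive range and below the wild-type mean by a difference of -0.59.

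Sdc2 was at 9.36 after cyclic loess on the YFP-negative array, against 8.85, 8.81 and 8.85 in YFP-positive cells and 9.18, 9.26 and 8.97 in wild-type cells. It thus lay just above every other sorted array, with a difference of 0.52 ± 0.14 (0.19 to 0.86, adjusted p = 0.0906, limma) from YFP-positive and 0.22 (-0.11 to 0.56, adjusted p = 0.408) from wild-type cells. Gpc2 at 4.46 and Gpc3 at 4.31 stood just over the background level of 4.15 of this array. Their differences from YFP-positive cells were 0.60 (adjusted p = 0.0957, limma) and 0.65 (adjusted p = 0.116), and neither was called. YFP-positive cells were not above background for either gene, so the sizes of these differences are not resolved. The directions of Sdc2, Gpc2 and Gpc3 turned as deposited, and not after quantile normalization or with equal medians. Against YFP-positive cells Gpc2 was at 0.80 and Gpc3 at 0.83 after quantile normalization, and Gpc3 was at 0.81 with equal medians. As deposited Sdc2 differed by -0.44 from YFP-positive cells and by -1.01 from wild-type cells (adjusted p = 0.00427, called lower), Gpc2 by -0.38 and -0.43, and Gpc3 by -0.31 and -0.52.

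The remaining genes were close to the other sorted arrays. Sdc1 was at 7.11 on the YFP-negative array against means of 6.72 in the YFP-positive and 7.16 in the wild-type group, and Sdc4 at 7.06 against 7.02 and 6.98. Sdc3 was at 7.32, within the range of both groups. Gpc4 was at 8.06 against 8.25 and 8.16, and Gpc1 at 6.50, below the 3 YFP-positive arrays and within the wild-type range. None of the 10 genes was called against YFP-positive cells, where 2.62% of all rows were called higher and 1.36% lower. None was called against wild type either, where the shares were 3% and 1.57%. By unadjusted p under 0.05 the numbers were 4 of 10 and 1 of 10, beside 4773 and 4865 of all 21789 rows. As deposited the calls were 4 and 7, all lower in the YFP-negative array, together with its lower overall scale. Of all 21789 rows, up to 16522 and 16353 were called in alternatives with no replicate left out, values as deposited among them. The 4 and 7 calls are therefore not read as specific to these genes.

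**Figure D4:**
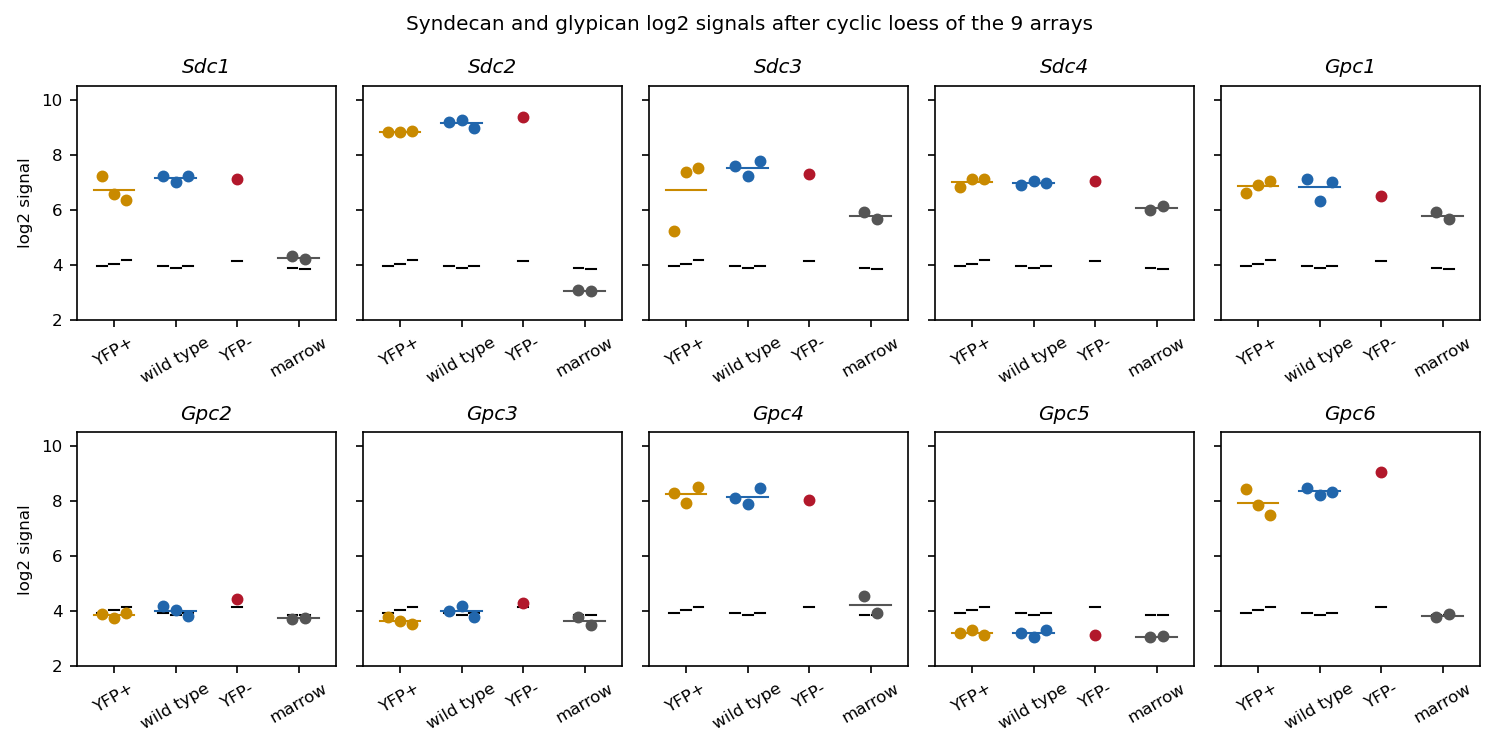
Log2 signals after cyclic loess of the 9 arrays, 1 panel per gene, with a point per array, a coloured line at the mean of groups with more than 1 array and a short black line at each array's background level. The YFP-negative point lies above the 6 other sorted arrays for Sdc2, Gpc2, Gpc3 and Gpc6.

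Against total marrow, the YFP-negative array was called higher for 6 of the 10 genes and lower for none, with 13% of all rows called higher and 13.2% lower. The genes were Sdc1 (2.84, adjusted p = 6.54e-04, limma), Sdc2 (6.30, adjusted p = 7.39e-07), Sdc4 (0.99, adjusted p = 0.00544), Gpc2 (0.71, adjusted p = 0.0241), Gpc4 (3.82, adjusted p = 1.97e-04) and Gpc6 (5.21, adjusted p = 3.18e-05). Marrow was not above background for Sdc2, Gpc2 and Gpc6 on this scale, which gives at least 45.0-fold, 1.51-fold and 35.9-fold. The Gpc2 call was lost without marrow replicate 1 (adjusted p = 0.0921) or 2 (0.0755). Sdc4 and Gpc2 were lower than in marrow as deposited, by a difference of -0.44 and -0.14. Gpc1, called in both other sorted groups, was not called here (0.71, adjusted p = 0.178).

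Partners of the chains were read from gene lists. Of 26 heparin-binding ligands, YFP-positive cells had 15 called higher than marrow and 0 called lower, and wild-type cells 16 and 0, with medians of 1.15 and 1.54. Over all rows the shares called higher and lower were 11% and 18.5% in YFP-positive cells and 10.4% and 13.9% in wild-type cells. Cxcl12, the chemokine that retains blood cell precursors, was higher by 6.90 ± 0.11 (adjusted p = 5.19e-08, limma) and 6.96 ± 0.11 in the YFP-positive and wild-type groups. Bmp4, a bone morphogenetic protein, was higher by 5.90 ± 0.22 and 6.73 ± 0.22. Fgf7, a fibroblast growth factor of mesenchyme, was not above background in marrow and was at least 63.0-fold and 86.2-fold higher. Of 14 receptors that use heparan sulfate, 9 were higher and 2 lower in each group, with median changes of 2.18 and 2.21. Fgfr2 was at least 60.5-fold and 70.3-fold higher, Nrp1 was higher by 3.46 and 3.87, and Fgfr1 by 3.35 and 3.52. Cxcr4, the receptor of Cxcl12 on blood cells, was lower by a log2 difference of -4.11 and -4.17, and Met, the receptor of Hgf, was at least 1.38-fold and 1.62-fold lower. The lists were chosen with earlier results on stroma known.

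Among the enzymes that build the chain, some were higher and Xylt1 was lower in both groups. Of 11 genes for the linkage region and polymerisation, YFP-positive cells had 5 higher and 1 lower, and wild-type cells 4 and 1, where 11% and 10.4% of all rows were called higher. Ext1 and Ext2, which together form the heparan sulfate polymerase, were higher by 1.34 ± 0.36 (adjusted p = 0.0263, limma) and 1.28 ± 0.33 (adjusted p = 0.0217) in YFP-positive cells, and by 1.76 and 1.77 in wild-type cells. In YFP-positive cells the Ext1 call was lost without marrow replicate 1 (adjusted p = 0.0641) or 2 (0.173), without YFP-positive replicate 2 (0.0612), and with only both groups in the fit (0.0633). The Ext2 call was lost without marrow replicate 1 (adjusted p = 0.0601) or 2 (0.149) and without YFP-positive replicate 1 (0.0509) or 2 (0.0539). In wild-type cells both were lost without marrow replicate 2 (adjusted p = 0.0844 and 0.0569). Extl3, which starts the chain, was higher by 1.55 and 2.14. Xylt1, a xylosyltransferase that adds the first sugar to the core protein, was lower by -1.75 ± 0.18 (adjusted p = 2.32e-04) and -1.19 ± 0.18. Of 19 genes for sulfation, epimerisation and supply of the sulfate donor, 0 were called in YFP-positive cells, and 3 were higher in wild-type cells. Those were Hs2st1, the 2-O-sulfotransferase, at 1.09 ± 0.20 (adjusted p = 0.00490), and the sulfate donor transporters Slc35b3 at 0.74 and Slc35b2 at 0.49. In YFP-positive cells Hs2st1 was at 0.51 (adjusted p = 0.0906) and Slc35b2 at 0.40 (adjusted p = 0.0729), and both passed the threshold after cyclic loess (adjusted p = 0.00829 and 0.0154), Slc35b2 also without YFP-positive replicate 3 (0.0496). In wild-type cells the Hs2st1 call was lost without marrow replicate 2 (adjusted p = 0.0502). The Slc35b2 call there was lost without marrow replicate 1 (0.234) or 2 (0.133), wild-type replicate 1 (0.121) or 2 (0.119) or YFP-positive replicate 2 (0.0601).

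Of 10 genes that edit, cut or release the proteoglycans, YFP-positive cells had 3 higher and 2 lower, and wild-type cells 2 and 2 (3 and 3 after cyclic loess). The lower calls were near the share of all rows, 18.5% and 13.9%, and the higher ones stood beside 11% and 10.4%. Sulf1 and Sulf2 encode extracellular enzymes that remove 6-O-sulfate from heparan sulfate, and they differed in direction. Sulf1 was at least 33.7-fold and 27.0-fold higher in the sorted groups, while Sulf2 was at least 2.78-fold lower in YFP-positive cells and differed by -1.28 ± 0.16 in wild-type cells (adjusted p = 7.44e-04, limma). Hpse, the heparanase that cuts the chains, was at least 6.85-fold and 8.07-fold lower than in marrow. Mmp14, a membrane protease that can shed syndecan-1, was higher by 3.98 ± 0.12 and 4.31 ± 0.12, and its family's inhibitor Timp3 by 2.68 ± 0.69 in YFP-positive cells (adjusted p = 0.0224). The Timp3 call was lost without marrow replicate 1 (adjusted p = 0.156) or 2 (0.0690).

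Inside the cell, 4 of 9 partners of the syndecan tails were lower and 0 higher in YFP-positive cells, and 2 were lower and 1 higher in wild-type cells. Over all rows 18.5% and 13.9% were lower, and after cyclic loess 2 of the 9 partners were lower in YFP-positive cells. Ezr, the membrane linker ezrin, differed by -3.08 and -3.15, and Tiam1, a Rac activator, was at least 2.81-fold and 3.31-fold lower. Pdcd6ip, or Alix, which acts with syntenin in exosome formation, differed by -0.74 (adjusted p = 0.0416, limma) in YFP-positive cells, a call lost after cyclic loess (-0.30, adjusted p = 0.229) and without marrow replicate 1 (0.180) or 2 (0.155), YFP-positive replicate 2 (0.0718) or 3 (0.0595) or wild-type replicate 2 (0.0582) or 3 (0.0639). Gipc1, a scaffold of the syndecan tail named here to complete the count, differed by -0.67 (adjusted p = 0.0435) and was likewise not called after cyclic loess (-0.49, adjusted p = 0.113). Cask, a scaffold that binds the syndecan tail, was higher by 1.07 in wild-type cells (adjusted p = 0.0350), a call lost without marrow replicate 1 (0.247) or 2 (0.0743) or wild-type replicate 2 (0.0752) or 3 (0.0553).

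Of 7 lysosomal enzymes that degrade heparan sulfate, 1 was higher and 1 lower in YFP-positive cells (Ids 1.22, Gusb -1.15), and 2 higher and 1 lower in wild-type cells (Naglu 1.56, Sgsh 0.84, Gusb -0.87). These counts are near the shares of all rows (11% higher and 18.5% lower, 10.4% and 13.9%), and after cyclic loess they were 3 and 2 in YFP-positive cells. All of these calls were lost when either marrow replicate was left out, with adjusted p of 0.0653 and 0.0569 for Ids and 0.0860 and 0.0702 for Gusb in YFP-positive cells. In wild-type cells the values without marrow replicates 1 and 2 were 0.115 and 0.0762 for Naglu, 0.186 and 0.117 for Sgsh, and 0.205 and 0.172 for Gusb. There the Gusb call was also lost without YFP-positive replicate 1 (0.0551) or any wild-type replicate (0.0704 to 0.122), Sgsh without wild-type replicate 1 (0.0614) or 3 (0.0789), and Naglu without wild-type replicate 3 (0.0506).

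Of 9 other proteoglycans, 4 were higher and 2 lower in each group. All rows gave 11% higher and 18.5% lower in YFP-positive cells, and 10.4% and 13.9% in wild-type cells. Tgfbr3, or betaglycan, was higher by 5.06 and 5.15, Hspg2, perlecan of basement membranes, by 2.50 and 2.70, and Agrn, agrin, by 1.20 and 1.59. Srgn, the granule proteoglycan of blood cells, differed by -3.05 and -3.52 and the hyaluronan receptor Cd44 by -2.57 and -2.44.

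**Figure D5:**
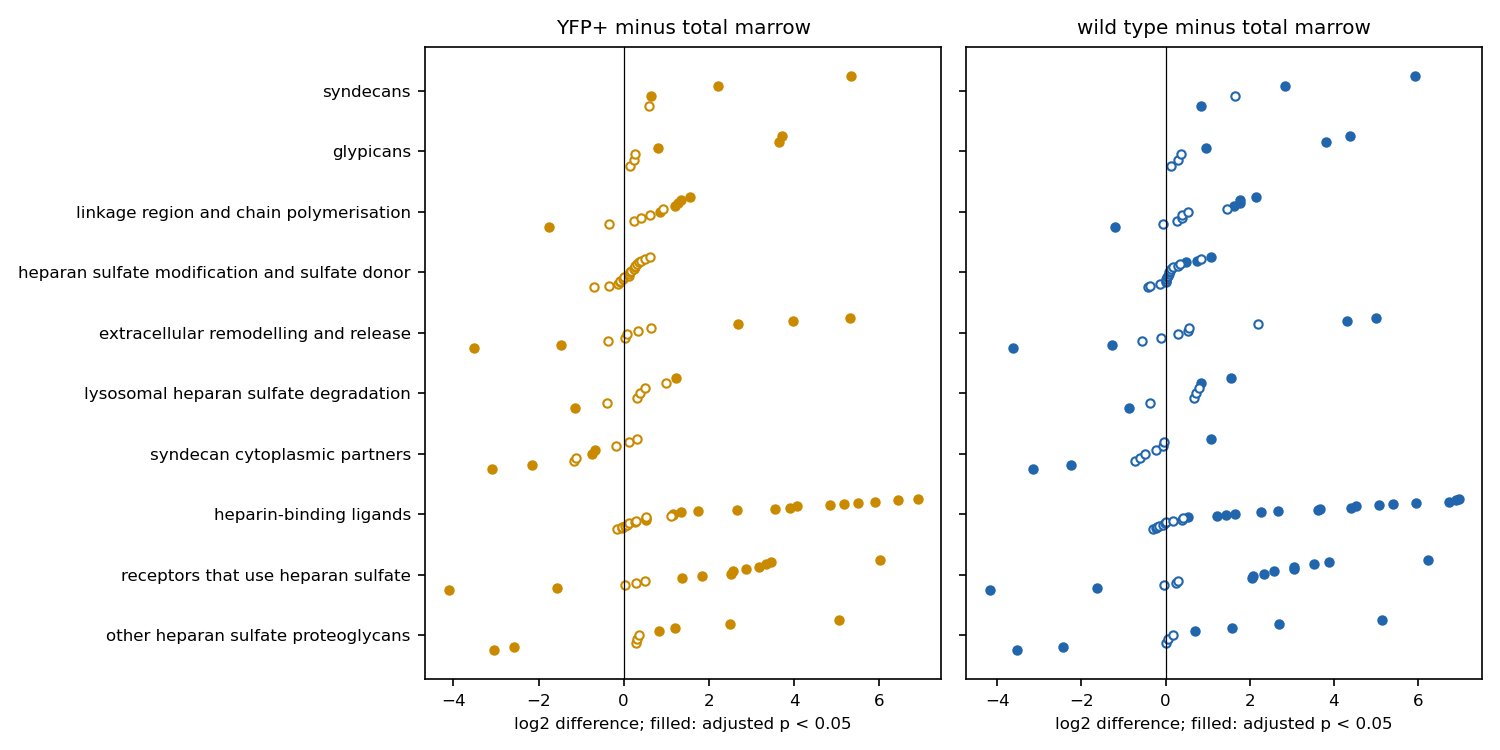
Log2 difference from total marrow of every measured gene of each list, for YFP-positive cells (left) and wild-type cells (right), as deposited; filled points have an adjusted p under 0.05. Heparin-binding ligands reach 6.90 and 6.96 (Cxcl12), and none of the 19 modification genes was called in YFP-positive cells.

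Between YFP-positive and wild-type cells no gene of these 8 lists was called. The genes with the smallest p in each list are given with their difference and limma's Benjamini-Hochberg adjusted p. Nearest to the threshold were Slc35b3 (-1.08, adjusted p = 0.0806) among the modification genes, where Hs2st1 followed (-0.57, adjusted p = 0.270), and Fgfr3 (-0.97, adjusted p = 0.0806) among the receptors, where Ptch1 followed (0.43, adjusted p = 0.297). For the linkage region they were B3galt6 (-0.62, adjusted p = 0.141) and Xylt1 (-0.55, adjusted p = 0.262), and for the ligands Bmp2 (-1.34, adjusted p = 0.151) and Bmp4 (-0.83, adjusted p = 0.205). Mmp14 (-0.33, adjusted p = 0.290) and the shedding protease Adam17 (-0.54, adjusted p = 0.345) stood first among the remodelling genes, and Cask (-0.76, adjusted p = 0.297) and the actin linker Actn1 (-0.89, adjusted p = 0.387) among the cytoplasmic partners. The last lists gave Sgsh (-0.46, adjusted p = 0.343), Ids (0.43, adjusted p = 0.394), Agrn (-0.39, adjusted p = 0.334) and Spock3 (0.28, adjusted p = 0.305), which was below background in both groups.

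After cyclic loess, 4 of the 105 measured genes of these lists were called higher and 1 lower in the YFP-negative array than in YFP-positive cells, 3.81% and 0.952%, near the 2.62% and 1.36% of all rows. Against wild type 5 were higher and 2 lower, 4.76% and 1.90%, near the 3% and 1.57% of all rows. The counts are thus close to the background, and the genes are given as values, named after these were seen. Agrn stood at 4.20 on that array, just over its background level of 4.15, against 5.79 in the YFP-positive and 6.08 in the wild-type group. The differences were -1.59 ± 0.23 (adjusted p = 0.0191, limma) and -1.88 ± 0.23 (adjusted p = 0.0143), and a signal this near background limits their sizes. As deposited, where the median of this array lay about a log2 unit lower, the Agrn differences were -2.89 and -3.28. On that lower scale calls in the lower direction stay lower, for Agrn and Fgfr3 alike, so this is no separate check of them. Fgfr3 differed from wild type by -1.25 (adjusted p = 0.0176), and by -2.67 as deposited, a call lost without wild-type replicate 1 (adjusted p = 0.0517).

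The other calls, all in the higher direction, turned or were lost as deposited, where the lower scale of that array works against them. Sulf2 was at 1.295 ± 0.20 (adjusted p = 0.0234, limma) and 1.11 ± 0.20 (adjusted p = 0.0322) from YFP-positive and wild-type cells, and at 0.052 and -0.15 as deposited. Prkca, the kinase recruited by syndecan-4, was at 1.24 and 1.16 (adjusted p = 0.0451 and 0.0495), and at -0.043 and -0.17 as deposited. From YFP-positive cells B3galt6 (0.89, adjusted p = 0.0303) and Slc35b3 (0.99, adjusted p = 0.0277) turned to -0.38 and -0.30. From wild type Papss2, which makes the sulfate donor (1.84, adjusted p = 0.0449), and Fgf2 (1.68, adjusted p = 0.0466) were at 0.41 and 0.46, and Pdgfb (0.66, at least 1.52-fold, adjusted p = 0.0461) turned to -0.25. With only both groups in the fit, the 5 calls against YFP-positive cells, Agrn included, were lost (adjusted p 0.227 to 0.290), and against wild type the calls other than Agrn (0.0517 to 0.0738). Against YFP-positive cells B3galt6, Slc35b3 and Prkca were lost when either marrow replicate was left out (adjusted p 0.0631 to 0.0920), and without wild-type replicate 2 (0.0521 to 0.0748). B3galt6 and Prkca were also lost without wild-type replicate 3 (0.0529 and 0.0569), B3galt6 without YFP-positive replicate 2 (0.0520), and Prkca without YFP-positive replicate 1 (0.0518) or wild-type replicate 1 (0.0745). Against wild type Sulf2, Prkca, Papss2, Fgf2 and Pdgfb were lost when any 1 of the marrow or wild-type replicates was left out (adjusted p 0.0549 to 0.103), and Prkca and Fgf2 also without YFP-positive replicate 1 (0.0547 and 0.0533).

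Sdc2 was used to look for genes with a like profile, as the member with the largest called difference. Over the 8 arrays without the YFP-negative one, with each row centred on its mean, the smallest root mean square differences from Sdc2 were those of Rarres2, the adipokine chemerin (0.103), Grem1, a bone morphogenetic protein antagonist (0.167), Adh1, an alcohol dehydrogenase (0.189), Prrx1, a transcription factor of mesenchyme (0.240), and Kng2, a kininogen (0.244). Sdc2 was not above background in marrow, so the exact distances and their order are not resolved. Their differences from marrow were 5.26, 5.51, 5.14, 5.67 and 5.52 in YFP-positive cells and 5.70, 5.95, 5.61, 5.86 and 5.70 in wild-type cells.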

How the data were processed

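RNA (RNeasy plus micro kit) went through whole-transcript amplification with NuGEN's Ovation Pico WTA V2 kit, was biotinylated with the Encore Biotin module and was hybridised to 9 Affymetrix Mouse Gene ST 1.0 arrays, per the labels' protocols. The authors deposited a log2 signal for each transcript cluster, made with RMA in Affymetrix Expression Console 1.3.1, per the submitters' processing notes; whether all arrays were summarised together is not given in the sources used here. Of 35556 rows, 21789 with 1 gene symbol (19938 genes) were tested without a filter, and 1621 with several genes and 12146 with none were left out. Of their Entrez identifiers, 21698 matched the RefSeq gene table. All 9 arrays entered a limma 3.58.1 fit in R 4.3.3 (group means, eBayes with 5 residual and 2.5 prior degrees of freedom, 2.27 after loess), two-sided, with Benjamini-Hochberg adjustment. Comparisons with the YFP-negative array used values after limma's cyclic loess, and the others values as deposited. Where the lower group of a called difference was not above background, a fold is given as at least the difference from the background level. All 10 members are named. Of each list, up to 3 called genes per direction with the largest change from marrow are named, or where none was called up to 2 with the smallest p. For the member with the largest called rise over marrow in YFP-positive cells (no member had a called fall), the 5 nearest profiles are named. The lists held 198 genes with the members and markers, of which 188 were measured. Members and lists were chosen with earlier results of these data known. Same-numbered YFP-positive and wild-type arrays did not deviate together (correlations -0.06, -0.03 and -0.01), so numbers were not used as pairs. Motifs were searched in RefSeq promoters (GRCm38.p6). The fit was tested on simulated data. The number of arrays limits the precision. Alternatives were the scaling, the rows and arrays in the fit, a filter, the moderation, array weights, a replicate block and leaving out each replicate.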

Additional observations from a re-analysis of the deposited data

How the results depend on the processing

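Sdc1, Sdc2, Gpc4 and Gpc6 were called against total marrow in every alternative run, 19 for YFP-positive, 19 for wild-type and 18 for the YFP-negative array. The number of members called against marrow ranged, with a replicate left out, from 4 to 7 for YFP-positive, 5 to 7 for wild-type and 5 to 7 for the YFP-negative array, and otherwise from 4 to 6, 6 to 7 and 5 to 9. Between YFP-positive and wild-type cells it was 0 in all alternatives. For the YFP-negative array it rose against YFP-positive cells from 0 to 4 as deposited, 2 after quantile normalization and 1 with equal medians, and was 0 to 1 with a replicate left out. Against wild type it rose from 0 to 7 as deposited. The fit with the replicate number as a replicate block called 5 members of YFP-positive minus marrow and 5 of YFP-negative minus marrow, losing Gpc1 (0.74, adjusted p = 0.0689 by limma) and Gpc2 (0.67, adjusted p = 0.0790), and changed no other count of members. It also left none of the pathway calls between the YFP-negative array and the other sorted groups, with adjusted p of 0.0866 and 0.0759 for Agrn, 0.104 and 0.110 for Sulf2, 0.0838 for Fgfr3, and 0.0874 to 0.163 for the others. It cut the rows called in all comparisons with the YFP-negative array, from 867 to 5 against YFP-positive cells, from 994 to 6 against wild type and from 5719 to 4769 against marrow. Of all rows, 6422, 5291 and 0 were called for YFP-positive minus marrow, wild type minus marrow and YFP-positive minus wild type, with ranges of 3636 to 6622, 3398 to 5980 and 0 to 26 when a replicate was left out and of 5235 to 7470, 4699 to 7022 and 0 to 9 otherwise. With the YFP-negative array the ranges were 244 to 1221, 185 to 1722 and 3817 to 6631, and otherwise 0 to 16522, 6 to 16353 and 4769 to 15666.

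Values that changed sign were these. For YFP-positive minus wild type, cyclic loess gave Sdc4 0.045, Gpc1 0.055 and Gpc4 0.086, quantile normalization 0.065, 0.096 and 0.085, and leaving out replicates put Gpc2 between -0.16 and 0.062. For YFP-negative minus YFP-positive as deposited, Sdc1 was -0.82, Sdc2 -0.44, Sdc3 -0.51, Sdc4 -1.10, Gpc2 -0.38, Gpc3 -0.31, B3galt6 -0.38, Slc35b3 -0.30 and Prkca -0.043. Sdc4 was -0.051 after quantile normalization and Gpc5 0.27 with equal medians, and with replicates left out Sdc3 ranged from -0.12 to 1.01 and Sdc4 from -0.069 to 0.088. For YFP-negative minus wild type as deposited, Sdc2 was -1.01, Sdc4 -1.27, Gpc2 -0.43, Gpc3 -0.52, Gpc6 -0.59, Sulf2 -0.15, Prkca -0.17 and Pdgfb -0.25. With equal medians Sdc4 was -0.20 and Gpc5 0.37, with the replicate block Sdc3 was 0.29, and with replicates left out Gpc4 ranged from -0.23 to 0.052. For YFP-negative minus marrow as deposited, Sdc4 was -0.44, Gpc1 -0.74, Gpc2 -0.14, Gpc3 -0.16 and Gpc5 -0.58. Apart from the lower scale of that array, the cause was not tested. Of 57 named pathway differences from marrow, 43 were called in every alternative. Gpc5 has no value with the filter on dim rows. Signals near background limit what can be read for Gpc2, Gpc3 and Gpc5 in all groups, for Sdc2 in marrow and for Agrn on the YFP-negative array.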

Other observations

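The genomic neighbours of the syndecans include genes of the lysosomal membrane family Laptm, and these were not members of any list. Laptm4a, next to Sdc1 on chromosome 12, was at 10.95 in YFP-positive cells, 10.94 in wild-type cells and 8.99 in total marrow, differences of 1.96 (adjusted p = 3.77e-05 by limma) and 1.95 (adjusted p = 3.63e-05). Pum2, on the other side of Sdc1, differed by -1.06 (adjusted p = 0.0333) and -0.83 (adjusted p = 0.0922). Laptm5, a gene of blood cells next to Sdc3 on chromosome 4, differed by -5.47 (adjusted p = 4.69e-04) and -6.22 (adjusted p = 2.29e-04).

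Both neighbours of Sdc2 on chromosome 15 were higher in the sorted cells. Sema5a, a semaphorin whose function depends on glycosaminoglycans, differed by 3.10 (adjusted p = 5.97e-04) and 3.10 (adjusted p = 6.07e-04), and Cpq, a plasma glutamate carboxypeptidase, by 2.06 (adjusted p = 0.0136) and 2.85 (adjusted p = 0.00309). Sema5a averaged 3.74 in marrow, under the marrow background levels of 3.85 and 3.81, so the size of its differences is not resolved. The neighbours of Sdc4 (Rbpjl and Sys1) and of Gpc1 (Otos and Ankmy1) were not called in either comparison. All of these genes were chosen by position after the values of the syndecans and glypicans were known.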
